A study of Homo sapiens with 17 samples.

Results

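The genes described here are 34 amino acid transporter genes of the solute carrier (SLC) families SLC1, SLC3, SLC6, SLC7, SLC16, SLC36, SLC38 and SLC43, chosen by family and gene name. The choice was made with earlier results of these data known and does not cover every gene of these families. All 34 were found among the 60662 genes of the count table. They were measured by RNA-seq in 17 cultures of Ishikawa cells, an established line from a human endometrial adenocarcinoma that is used as a model of the endometrial epithelium. The study compared progesterone (P4) with its vehicle, and recombinant PSAT1, an enzyme of serine synthesis, with and without P4.

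The labels name no genetic change in any culture, and all were harvested at 24 h. The control group held 3 untreated cultures. The vehicle control group held 3 cultures whose labels give a component written as Nap together with 70% ethanol, and a Nap-only group held 2 cultures. The P4 group held 3 cultures given Nap and P4. Only the labels of the vehicle controls name ethanol, so a contrast of P4 with vehicle may also contain an ethanol contrast, and the 2 cannot be told apart. The meaning of Nap is not given in the sources used here. The P4 dose is uncertain, since the study's figure legends give that of the sequenced cultures in micrograms per ml, while its methods and the protocol in the labels list doses in milligrams per ml and tie none to a culture. Another 6 cultures received PSAT1, but their labels contradict each other. In set A (3 cultures) the title and treatment say PSAT1 while the column name says PSAT1 with P4, and in set B (3 cultures) it is the reverse. Both readings agree that the sets differ by P4, so the sets were compared as set A minus set B, with no claim as to which received P4. Their titles and column names give neither Nap nor ethanol. The vehicle of P4 may thus also differ between the sets, and P4 and its vehicle cannot be told apart there. Over all 15621 genes tested, 0 had an adjusted p under 0.05 between set A and P4 treated cultures by edgeR's quasi-likelihood test. Over 17214 genes, 0 did between set B and control cultures. With 3 cultures a group, this does not show that no gene differed. DESeq2 also called 0 in both, and at an unadjusted p under 0.05 the edgeR counts were 199 and 1004.

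Amino acids cross membranes on carriers that differ in what they take and in what drives them. Exchangers such as the LAT and cystine carriers swap one amino acid for another and need the heavy chain SLC3A2 or SLC3A1 to reach the membrane, sodium-coupled carriers such as SLC38A2 and SLC1A5 load the cell against a gradient, and facilitators such as SLC43A1 and SLC16A10 let amino acids run down their gradient. Several of these genes are known targets of the transcription factor ATF4 when amino acids are scarce, and in the endometrium such carriers supply both the epithelium itself and the uterine fluid.

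Library totals ran from 4999521 to 19704493 counts, with a median of 12964362, and vehicle control replicate 1 was the smallest. A level is given as CPM, the count of a gene scaled to a common library size after TMM scaling over all cultures. Comparisons between genes use RPKM, which is the CPM per kilobase of exon. A gene was called where its p from edgeR's quasi-likelihood test, adjusted over all genes tested by the Benjamini-Hochberg method, was under 0.05, and ± gives the SD over cultures. All 8 epithelial markers were detected, with a summed level of 1303 to 1313 CPM in vehicle controls, 1041 to 1181 CPM in P4 treated cultures and 1041 to 1501 CPM over all 17 cultures. Leukocyte markers summed to at most 1.93 CPM and endothelial markers to at most 1.75 CPM. The 8 stromal markers summed to 345 to 361 CPM in vehicle controls and 419 to 624 CPM in controls, against 127 to 180 CPM in P4 treated cultures, 130 to 160 CPM in set A and 429 to 646 CPM in set B. Most of that sum was the collagen gene COL1A2, and the stromal marker DCN had a mean of 0.0268 CPM in vehicle controls and 0 in P4 treated cultures. Of 5 stromal markers tested with P4 against vehicle, 4 were called lower (PDGFRA, COL1A2, THY1 and COL1A1) and 0 higher. Their median log2 fold change was -1.41, and 26.5% of all genes tested were called lower. The part of these marker shifts in the transporter results was not tested. These are bulk libraries, so fewer cells of a type and less RNA per cell cannot be told apart.

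The transporters spanned a wide range of levels, and 7 of them carried most of the summed level. In vehicle controls the highest was SLC7A5, the LAT1 exchanger of large neutral amino acids, at 96.3 ± 3.10 RPKM. The sodium-coupled glutamine and alanine carriers SLC38A2 and SLC38A1 followed at 88.6 ± 2.72 and 66.2 ± 1.38 RPKM. Then came SLC1A5 at 44.2 ± 1.06, SLC7A11 at 39.7 ± 1.49, SLC3A2 at 34.5 ± 1.28 and SLC7A1 at 31.2 ± 2.82 RPKM (n = 3 each). Over the 3 vehicle controls, each of these 7 lay apart from the next in the order. The eighth, SLC6A6, stood at 7.06 ± 0.121 RPKM and overlapped with SLC7A6 at 6.95 ± 0.216 RPKM. In P4 treated cultures the order changed at the top. SLC38A2 led at 144 RPKM (131 to 159), ahead of SLC38A1 at 108 ± 3.11 RPKM, and SLC7A5 came next at 89.2 ± 9.51 RPKM, where its cultures overlapped with those of SLC1A5 at 79.1 ± 2.20 RPKM. SLC43A1 moved from rank 24 to rank 9 of 34 and SLC6A6 from rank 8 to rank 21.

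**Figure D1:**
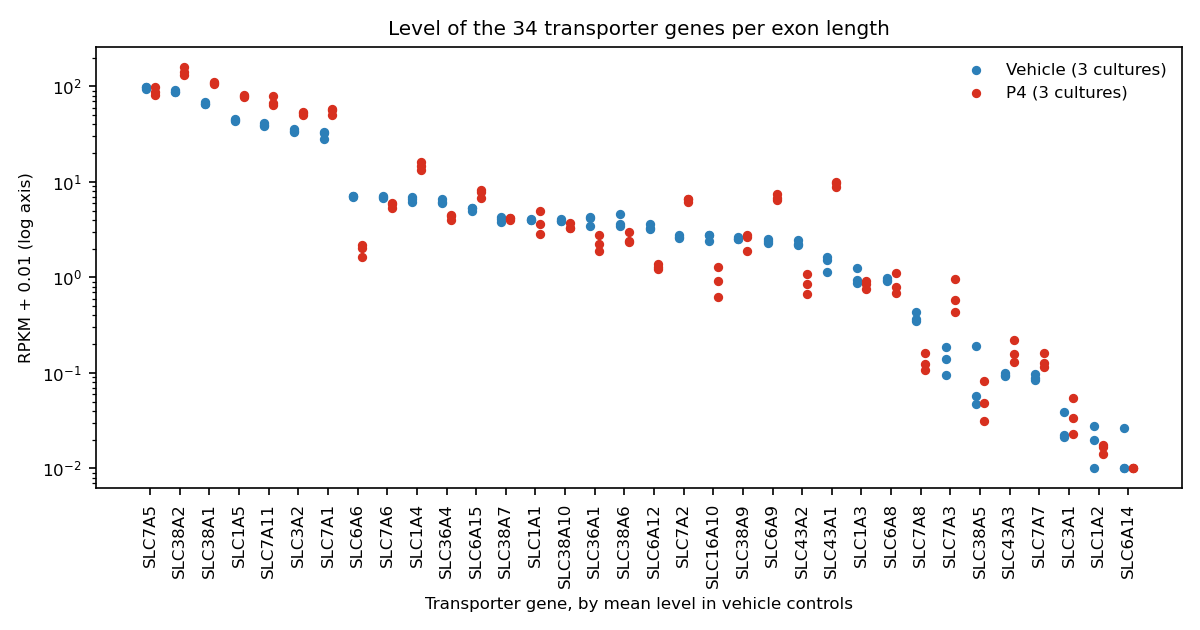
Level of the 34 transporter genes in RPKM plus 0.01 on a log axis, with a point for each of the 3 vehicle control (blue) and 3 P4 treated (red) cultures, ordered by the mean in vehicle controls. The 7 genes at the left average at least 31.2 RPKM in vehicle controls, and SLC43A1 and SLC6A6 show wide gaps between the groups.

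The summed RPKM of all 34 genes was 473 ± 10.8 in vehicle controls, and with P4 it was 679.5 ± 26.9 (n = 3 each). The 3 P4 treated cultures (653 to 707 RPKM) lay above all 3 vehicle controls (462 to 484 RPKM). The sum was 443 ± 36.4 in controls, 674 ± 14.2 in set A and 461 ± 14.7 in set B (n = 3 each), and 434 ± 19.5 in the 2 Nap-only cultures. The set A cultures (659 to 687 RPKM) fell inside the range of the P4 treated cultures, and set B (447 to 477 RPKM) overlapped with the control cultures (403 to 473 RPKM).

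**Figure D2:**
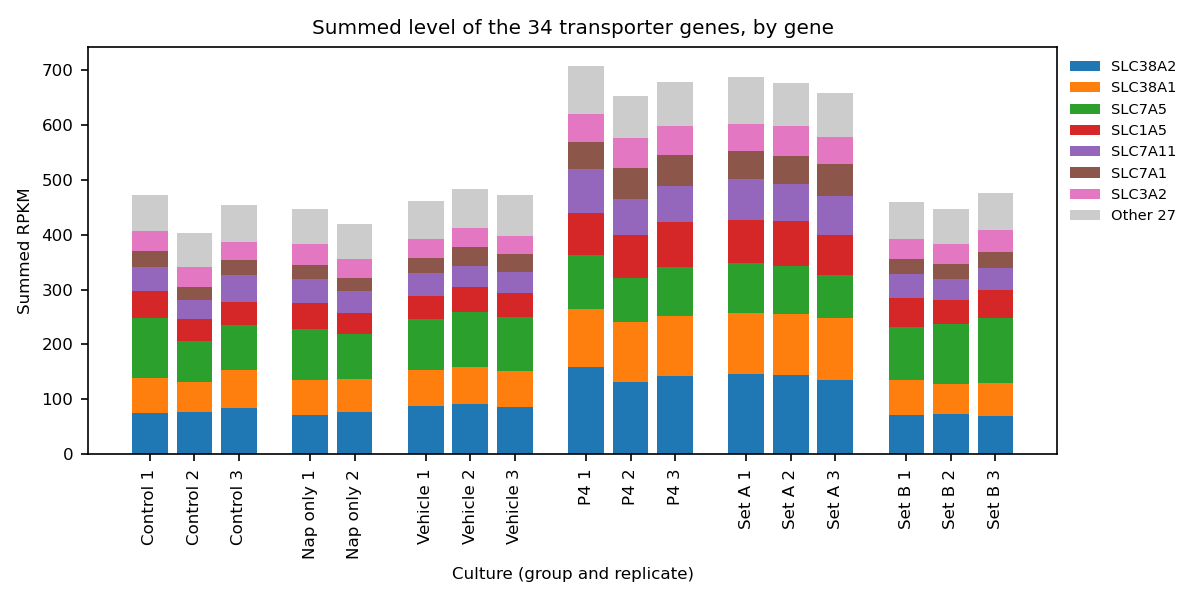
Summed RPKM of the 34 transporter genes in each of the 17 cultures, as stacked bars coloured for the 7 genes of highest level and grey for the other 27. The 3 P4 treated and 3 set A cultures reach 653 to 707 RPKM, while no other culture exceeds 484 RPKM.

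The main comparison asked how the transporters responded to P4 against the vehicle. Of the 34 genes, 28 passed the filter on low counts and 21 of these were called, 12 higher and 9 lower with P4. In the same fit 53.0% of all 16540 genes tested were called (26.6% higher and 26.5% lower), so a call by itself is common in these cultures. At an absolute log2 fold change of at least 0.8, 13 members were called, 7 higher and 6 lower, against 18.5% of all genes tested (8.05% higher and 10.5% lower). The median log2 fold change was -0.09 over the 28 members and -0.01 over all genes. SLC7A3 and SLC7A8 are among the 21, but each passed the filter only through the group in which it was high, so their calls are no support for these counts. The genes that rose included the cationic amino acid carriers SLC7A1 and SLC7A2, both SLC1 carriers of small neutral amino acids, and the 2 SLC38 carriers of highest level. The SLC36 genes and 2 of the 3 tested facilitators were lower. Among the 28 members, the groups did not overlap for 22, where 60.3% of all genes tested did not overlap.

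Among the facilitators, SLC43A1 (chr11:57484534-57515786, GRCh38, − strand), which carries large neutral amino acids such as leucine, had the largest rise of the list. Its vehicle controls were at 4.03, 5.31 and 5.80 CPM, and its P4 treated cultures at 35.4, 31.4 and 34.4 CPM. Every P4 treated culture was thus several times the highest vehicle control. This was a 6.36-fold rise (log2 fold change 2.67, SE 0.13, adjusted p = 1.59e-08). Its relative SLC43A2 (chr17:1569267-1628886, − strand), also a large neutral amino acid facilitator, moved the other way. SLC43A2 fell from 25.7, 23.0 and 23.4 CPM in vehicle controls to 6.93, 11.3 and 8.93 CPM with P4, which was 2.65-fold lower (log2 fold change -1.41, SE 0.15, adjusted p = 7.8e-06). The groups were apart, and the lowest vehicle control stood above 2 times the highest P4 culture. SLC16A10 (chr6:111087503-111231194, + strand), the facilitator of aromatic amino acids, fell from 30.9, 26.6 and 30.8 CPM to 14.2, 6.96 and 10.2 CPM. Here P4 replicate 1 was the highest and replicate 2 the lowest of the treated cultures, and both lay below every vehicle control. The fall was 2.84-fold (log2 fold change -1.51, SE 0.19, adjusted p = 4.03e-05). SLC43A3 of the same family was not tested, with at most 11 counts in any P4 or vehicle control library.

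The cationic carriers bring in arginine and lysine, and SLC7A1 and SLC7A2 were higher with P4. SLC7A2 rose from 20.7, 20.5 and 21.9 CPM to 48.4, 52.4 and 52.5 CPM, which was 2.40-fold (log2 fold change 1.26, SE 0.08, adjusted p = 2.21e-07). Within each group its cultures differed little, and the gap between the groups was wide. SLC7A1 (chr13:29509410-29595688, − strand), the most abundant of the cationic carriers, rose from 215, 256 and 249 CPM to 381, 445 and 436 CPM, or 1.73-fold (log2 fold change 0.79, SE 0.08, adjusted p = 6.39e-06). All its P4 treated cultures lay above its vehicle controls. SLC7A3 (chrX:70925582-70931125, − strand) was close to the limit of detection. It stood at 0.192, 0.295 and 0.403 CPM in vehicle controls and at 0.962, 1.29 and 2.14 CPM with P4. These rest on 10 counts over the vehicle controls and 53 over the P4 treated cultures, a ratio of 4.30 with a counting interval of 2.17 to 9.49. The groups did not overlap (log2 fold change 2.17, SE 0.46, adjusted p = 0.00163), but SLC7A3 passed the filter only through the P4 group, so a difference was built into its being tested.

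Both small neutral amino acid carriers of the SLC1 family rose. SLC1A4 (chr2:64988477-65023865, + strand), which carries serine, alanine and cysteine, went from 42.9, 45.9 and 48.4 CPM to 111, 93.2 and 101 CPM. Every P4 treated culture was close to or above 2 times the vehicle controls, a 2.19-fold rise (log2 fold change 1.13, SE 0.09, adjusted p = 5.92e-07). SLC1A5 (chr19:46774883-46788594, − strand), the main glutamine carrier of many growing cells, went from 144, 151 and 146 CPM to 257, 263 and 271 CPM. Its replicates were close in both groups, and the rise was 1.77-fold (log2 fold change 0.82, SE 0.06, adjusted p = 4.43e-07). Neither of the tested glutamate carriers of the family passed the test. SLC1A1 averaged 15.9 ± 0.227 CPM with the vehicle against 15.2 ± 4.14 CPM with P4 (log2 fold change -0.09, 95% interval -0.42 to 0.24). SLC1A3 was at 6.34 ± 1.28 and 5.20 ± 0.556 CPM (log2 fold change -0.31, 95% interval -0.68 to 0.05), and SLC1A2 was too low to test. Neither interval shows that these genes stayed level.

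Among the exchangers, which work as pairs of a light and a heavy chain, the heavy chain and the cystine carrier rose, and none of the other 3 tested light chains did. SLC7A11 (chr4:138164097-138242349, − strand) brings in cystine for glutathione in exchange for glutamate. Its levels were 398, 382 and 369 CPM in vehicle controls and 768, 621 and 644 CPM with P4. P4 replicate 1 was the highest, but all 3 lay well above the vehicle controls, and the rise was 1.76-fold (log2 fold change 0.81, SE 0.08, adjusted p = 5.87e-06). The heavy chain SLC3A2 rose from 179 ± 6.65 to 269 ± 9.91 CPM, or 1.49-fold (log2 fold change 0.58, SE 0.06, adjusted p = 9.9e-06). Its main partner SLC7A5 was at 441, 469 and 462 CPM in vehicle controls and at 470.3, 380.4 and 419 CPM with P4. These groups overlapped (log2 fold change -0.13, 95% interval -0.28 to 0.03, adjusted p = 0.196), so SLC7A5 had no change past the threshold beside the rise of its heavy chain. Without P4 replicate 1, SLC7A5 was called lower (log2 fold change -0.20, adjusted p = 0.00447).

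SLC7A8 (chr14:23125295-23183674, − strand), the LAT2 light chain, was scarce. It fell from 2.11, 2.51 and 2.01 CPM to 0.577, 0.688 and 0.916 CPM, on 70 and 26 counts in all. The groups lay apart, with a 3.03-fold fall (log2 fold change -1.60, SE 0.30, adjusted p = 0.000669), but SLC7A8 passed the filter only through the vehicle controls, with 3 of them and 1 P4 treated culture over its minimum. SLC7A6, an exchanger of cationic for neutral amino acids, averaged 52.8 ± 1.64 CPM with the vehicle and 43.6 ± 2.46 CPM with P4 (log2 fold change -0.29, SE 0.08, adjusted p = 0.00849). That call did not hold without P4 replicate 3 (adjusted p = 0.0649). SLC7A7 and the heavy chain SLC3A1 were too low to test, with 13 and 3 counts over the vehicle controls.

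The members among the sodium- and chloride-coupled SLC6 carriers split in both directions. Of the SLC6 genes outside the member list, SLC6A17, SLC6A20 and SLC6A13 were called lower with P4, and they are counted below with the other carriers. SLC6A9 (chr1:43991500-44031467, − strand), the glycine carrier, rose from 11.9, 13.0 and 12.5 CPM to 38.1, 35.0 and 33.4 CPM. No P4 treated culture came near the vehicle controls, and the rise was 2.80-fold (log2 fold change 1.48, SE 0.10, adjusted p = 2.67e-07). SLC6A15, a carrier of branched-chain amino acids and proline, rose less, from 45.2 ± 1.97 to 67.0 ± 6.79 CPM (log2 fold change 0.55, SE 0.09, adjusted p = 0.000248). SLC6A6 (chr3:14402576-14489349, + strand), the taurine carrier, had the largest fall of the members tested. Its vehicle controls were at 59.2, 57.3 and 58.4 CPM and its P4 treated cultures at 17.9, 13.3 and 16.8 CPM. All treated cultures were far below the lowest vehicle control, a 3.67-fold fall (log2 fold change -1.88, SE 0.11, adjusted p = 5.38e-08). SLC6A12 (chr12:190077-214570, − strand), which carries betaine and GABA, fell from 17.1, 18.9 and 17.3 CPM to 7.31, 6.36 and 6.64 CPM. Again the groups were far apart (2.66-fold lower, log2 fold change -1.41, SE 0.12, adjusted p = 1.97e-06). The creatine carrier SLC6A8 was at 5.15 ± 0.188 and 4.74 ± 1.22 CPM (log2 fold change -0.12, 95% interval -0.52 to 0.27). SLC6A14, a broad-specificity carrier, had 1 count in all in the vehicle controls and 0 in every other culture.

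Of the sodium-coupled neutral carriers of the SLC38 family, the 2 that carry most of its expression rose. SLC38A2 (chr12:46358189-46372867, − strand) went from 576, 606 and 573 CPM to 1051, 868 and 938 CPM (1.61-fold, log2 fold change 0.69, SE 0.07, adjusted p = 1.07e-05). SLC38A1 (chr12:46183063-46270017, − strand), which lies near it on chromosome 12, went from 655, 679 and 655 CPM to 1049.8, 1098 and 1108 CPM (1.62-fold, log2 fold change 0.70, SE 0.06, adjusted p = 1.13e-06). In both, all P4 treated cultures lay above all vehicle controls. SLC38A6 fell from 19.8 ± 3.28 to 13.3 ± 1.83 CPM (log2 fold change -0.56, SE 0.14, adjusted p = 0.00474). Of the members that act in lysosomes or other inner membranes, SLC38A7 (lysosomal glutamine export) was at 28.4 ± 1.69 and 28.7 ± 0.929 CPM (95% interval of the log2 fold change -0.18 to 0.17), and SLC38A9, the lysosomal arginine sensor, at 22.6 ± 0.665 and 21.4 ± 4.24 CPM (95% interval -0.35 to 0.17). SLC38A10 had groups that did not overlap but missed the threshold (log2 fold change -0.22, adjusted p = 0.0637). It was called lower without P4 replicate 1 (adjusted p = 0.0126), as was SLC1A1 (adjusted p = 0.044). SLC38A5 was too low to test. Outside the member list, SLC38A3 and SLC38A8 were called lower with P4 and are counted below with the other carriers.

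The SLC36 members were both lower with P4, and SLC36A1 is a proton-coupled carrier that can release amino acids from lysosomes. SLC36A1 (chr5:151437046-151492381, + strand) fell from 23.8, 29.5 and 28.8 CPM to 19.2, 15.4 and 13.2 CPM (1.77-fold, log2 fold change -0.82, SE 0.14, adjusted p = 0.000333). SLC36A4 fell from 60.2 ± 3.01 to 41.5 ± 3.01 CPM (1.47-fold, log2 fold change -0.55, SE 0.08, adjusted p = 0.000143). In both genes the groups did not overlap, but the vehicle controls also differed from the untreated controls.

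**Figure D3:**
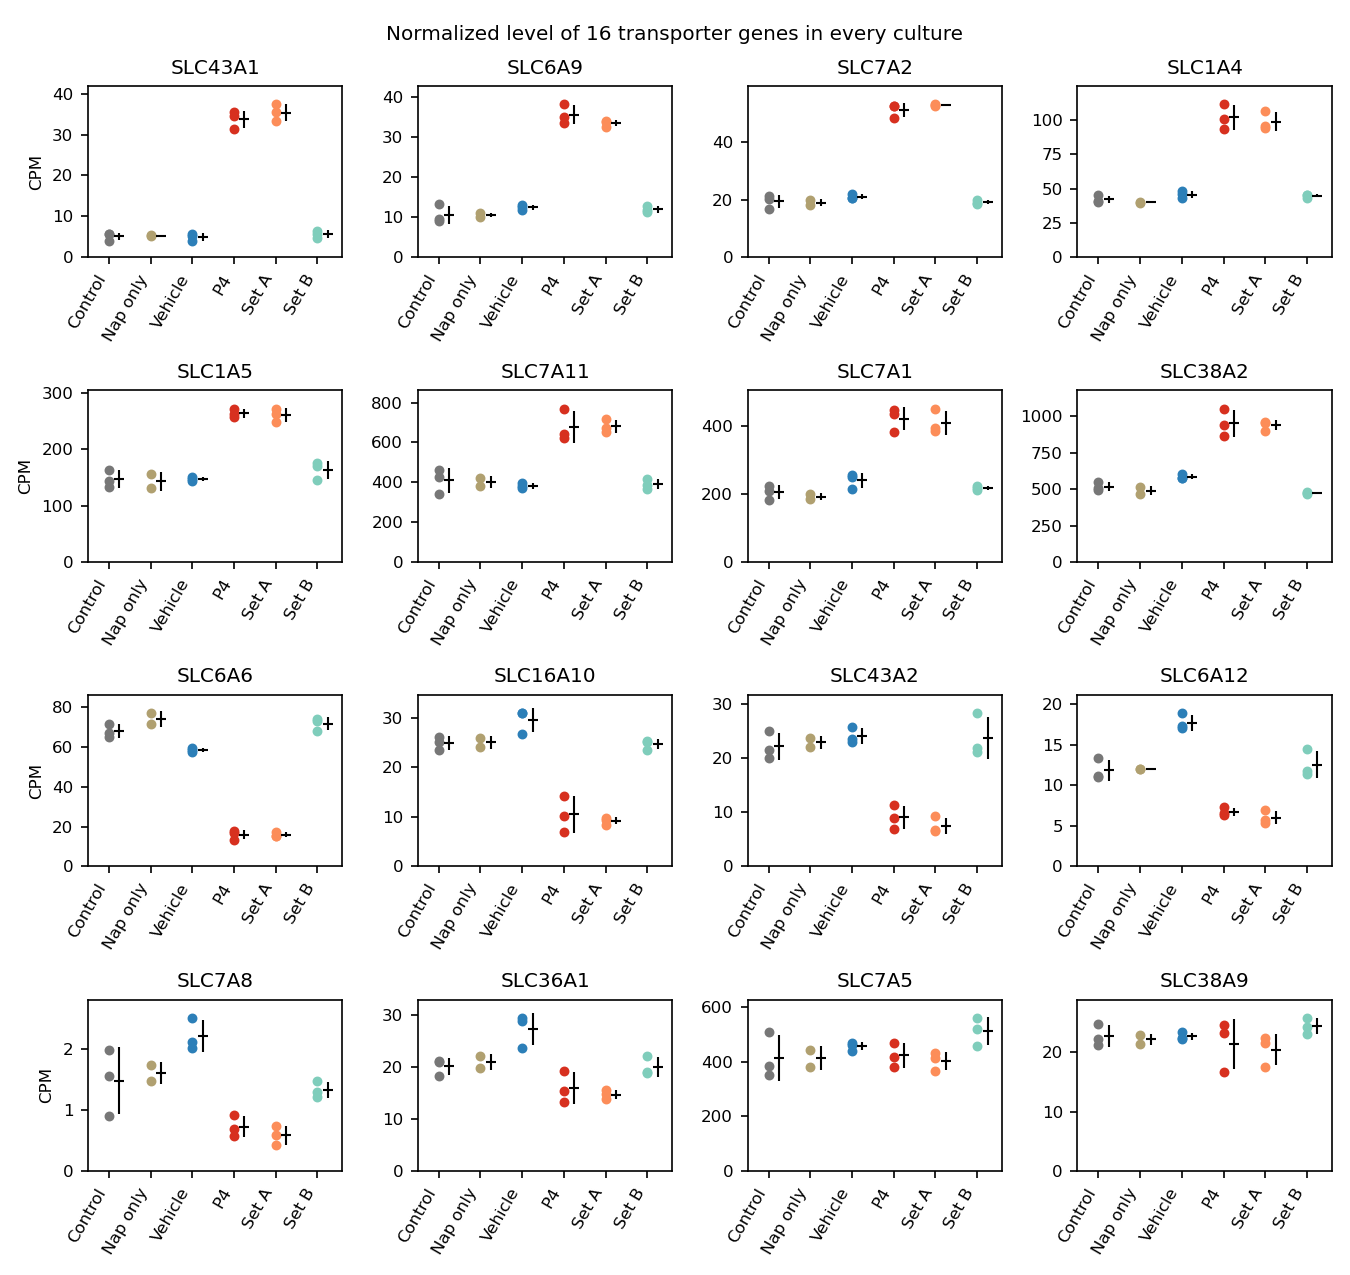
CPM of 16 transporter genes in each of the 17 cultures by group, with a point per culture and a cross with a bar for the mean and SD. In the upper 8 panels P4 treated and set A cultures lie above all others (SLC43A1 at 31.4 to 37.4 CPM against at most 6.54 CPM), and SLC6A6 shows the reverse (13.3 to 17.9 CPM against at least 57.3 CPM).

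The vehicle was compared with untreated cells to give the background of the P4 comparison. Of 27 members tested, 7 were called, 6 higher and 1 lower in vehicle controls, where 22.6% of all 16673 genes tested were called (11.9% higher and 10.7% lower). Without vehicle control replicate 1, 2 or 3 the members called were 4, 3 and 3. The largest change was a log2 difference of 0.58 for SLC6A12 (11.9 ± 1.31 CPM in control, 17.8 ± 0.989 CPM in vehicle control, adjusted p = 0.00141). SLC6A8 (log2 difference 0.55), SLC36A1 (0.47), SLC36A4 (0.39), SLC38A10 (0.27) and SLC7A1 (0.23) were also higher, and SLC6A6 was lower (-0.22). Both SLC36 genes were thus higher in the vehicle than in untreated cells and lower with P4 than in the vehicle.

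With untreated controls as the reference, the fall of SLC36A1 with P4 was smaller (log2 fold change -0.37, adjusted p = 0.0326), as was that of SLC6A12 (-0.84, adjusted p = 0.000169) and of SLC7A8 (-1.06, adjusted p = 0.0184). SLC36A4 was no longer called (-0.18, adjusted p = 0.163). SLC7A6 turned from -0.29 to 0.07 (adjusted p = 0.686). The remaining 19 members called in P4 against vehicle control were also called against untreated controls, in the same direction. They include SLC7A3, with 5 to 7 counts a control culture, and SLC7A8, with 6 to 12 counts a P4 treated culture. For these scarce genes the shared direction is no support. SLC43A1 kept a log2 fold change of 2.67 and SLC6A6 had -2.11 against controls.

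The PSAT1 sets gave a second comparison in which no culture was shared with the first. Of 28 members tested, 21 were called between set A and set B, 12 higher and 9 lower in set A, where 62.3% of all 16586 genes tested were called (30.7% higher and 31.6% lower). At an absolute log2 fold change of at least 0.8, 13 members were called, against 24.3% of all genes tested. Both counts include SLC7A3 and SLC7A8. Each passed the filter only through the set in which it was high, so their calls are no support for these counts. The median log2 fold change was 0.00 over the members and -0.02 over all genes. SLC43A1 was at 5.81, 6.54 and 4.78 CPM in set B and at 37.4, 33.3 and 35.4 CPM in set A (6.10-fold, log2 fold change 2.61, SE 0.12, adjusted p = 6.65e-13). SLC6A6 was at 74.2, 67.9 and 72.8 CPM in set B and at 17.4, 15.1 and 15.2 CPM in set A (4.59-fold lower, log2 fold change -2.20, SE 0.09, adjusted p = 7.3e-14). In both genes the sets lay far apart, and neither overlapped.

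Other members that carry neutral or cationic amino acids into the cell were higher in set A. SLC6A9 stood at 11.2, 11.9 and 12.8 CPM in set B against 34.02, 32.5 and 33.7 CPM in set A (log2 fold change 1.45, adjusted p = 1.59e-10). SLC7A2 stood at 19.9, 18.6 and 18.9 CPM against 53.0, 52.9 and 52.4 CPM (1.44, adjusted p = 1.21e-11). SLC1A4 stood at 45.8, 45.7 and 43.6 CPM against 107, 94.0 and 95.7 CPM (1.11, adjusted p = 8.46e-11). None of these 3 genes had overlapping sets. SLC38A2 stood at 472, 482 and 463 CPM against 963, 955 and 899 CPM (0.96, adjusted p = 2.54e-11). SLC38A1 stood at 639.5, 555 and 599.5 CPM against 1125, 1118 and 1131 CPM (0.89, adjusted p = 2e-10). SLC7A1 stood at 217, 211 and 222 CPM against 383, 393 and 449 CPM (0.89, adjusted p = 6.12e-10). For these 3 abundant carriers the fitted folds were 1.95, 1.85 and 1.85, and every set A culture lay above every set B culture. SLC7A3 was again scarce, at 0.447, 0.334 and 0.354 CPM against 0.983, 1.20 and 0.948 CPM (32 counts in set A and 18 in set B, a ratio of 2.37 with a counting interval of 1.29 to 4.49), and it passed the filter only through set A.

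The members lower in set A were led by SLC6A6. SLC43A2 stood at 21.1, 21.8 and 28.2 CPM in set B against 6.59, 9.21 and 6.74 CPM in set A (log2 fold change -1.68, adjusted p = 1.02e-08). SLC16A10 stood at 25.3, 23.6 and 25.2 CPM against 9.44, 9.86 and 8.43 CPM (-1.44, adjusted p = 1.06e-09). SLC6A12 stood at 11.7, 11.4 and 14.4 CPM against 6.98, 5.71 and 5.37 CPM (-1.08, adjusted p = 4.19e-06). The sets did not overlap in any of the 3 genes. SLC7A8 stood at 1.21, 1.47 and 1.30 CPM against 0.590, 0.737 and 0.421 CPM (-1.18, adjusted p = 0.00736), and passed the filter only through set B. DESeq2 did not call SLC7A8 (adjusted p = 0.0504). SLC7A5, at 514 ± 51.0 CPM in set B and 403 ± 34.1 CPM in set A, was called lower (-0.38, adjusted p = 0.000297). SLC38A9 was also called (-0.28, adjusted p = 0.0262), a call that was lost without set B replicate 1, set B replicate 2 or set A replicate 2 (adjusted p = 0.0552, 0.0997 and 0.221). SLC38A10 was not called (-0.24, adjusted p = 0.0685), but was without set B replicate 1 (adjusted p = 0.00374).

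Set beside each other, the 2 comparisons had like values for most transporters. Over the 28 members tested in both, the log2 fold changes had a Pearson r of 0.969 and a Spearman rho of 0.939. This is a description across genes, which are not independent replicates, and over all 16158 genes tested in both the values were 0.873 and 0.863. Of the members, 19 were called in the same direction in both, and 0 in opposite directions, where 45.5% of all genes were called in both in the same direction. These 19 include SLC7A3 and SLC7A8, which in both comparisons were tested only through the group in which they were high, so a shared direction was built in for them. The r and rho over the 28 members include these genes too and are raised by them to an extent that was not tested. SLC36A4 and SLC7A6 were called only with P4 against vehicle, and SLC38A9 and SLC7A5 only between the sets. The difference between the 2 responses was then tested in 1 fit over the 4 groups, a test added after the data were seen. No member was called by edgeR (0 of 28), with 6 members at an unadjusted p under 0.05 and 1 member called by DESeq2, where 1.41% of all 17363 genes tested were called and 15.5% had an unadjusted p under 0.05. The member nearest to a call was SLC36A4 (difference 0.44 on the log2 scale, SE 0.11, adjusted p = 0.0544), which DESeq2 called. Without P4 replicate 1, SLC36A4 and SLC38A2 were called, and without P4 replicate 2 SLC36A4 was. For SLC43A1 the difference was -0.05 (95% interval -0.41 to 0.31).

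**Figure D4:**
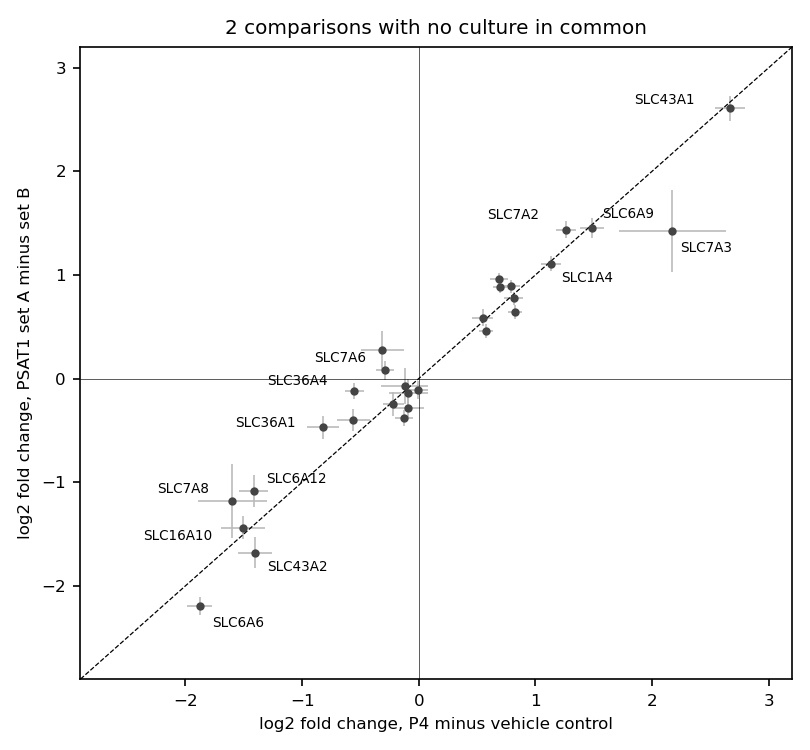
Log2 fold change of the 28 tested transporters for P4 minus vehicle control (x axis) and for PSAT1 set A minus set B (y axis), with bars for the standard error and a dashed line of equal values. The points follow the line with r = 0.969, from SLC6A6 at the lower left to SLC43A1 at the upper right. They include SLC7A3 and SLC7A8, for which a shared direction was built in by the filter.

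Set A and set B were also set against the other groups. Against controls, 19 of 28 members were called for set A, where 60.2% of all genes tested were called. For set B against controls 0 of 27 members were called by edgeR and 0 by DESeq2, where 0.0% of all genes tested were called. At an unadjusted p under 0.05 there were 2 members, SLC7A5 (log2 difference 0.32) and SLC6A8 (0.44), and 5.83% of all genes. Between set A and P4 treated cultures 0 of 27 members were called by either tool, where 0.0% of all genes tested were called, and 0 members but 1.27% of all genes had an unadjusted p under 0.05. SLC43A1 differed there by 0.06 (95% interval -0.12 to 0.23), SLC6A6 by -0.02 (-0.28 to 0.25) and SLC38A2 by -0.03 (-0.18 to 0.12) on the log2 scale. With 3 cultures a group, differences inside these intervals were not excluded. Set B against P4 treated cultures had 20 of 28 members called, 8 higher and 12 lower in set B, where 57.1% of all genes tested were called (28.8% higher and 28.3% lower). The 19 and the 20 both include the scarce SLC7A3 and SLC7A8, whose calls are no support for these counts. Since these comparisons share cultures with those above, they are not separate evidence.

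**Figure D5:**
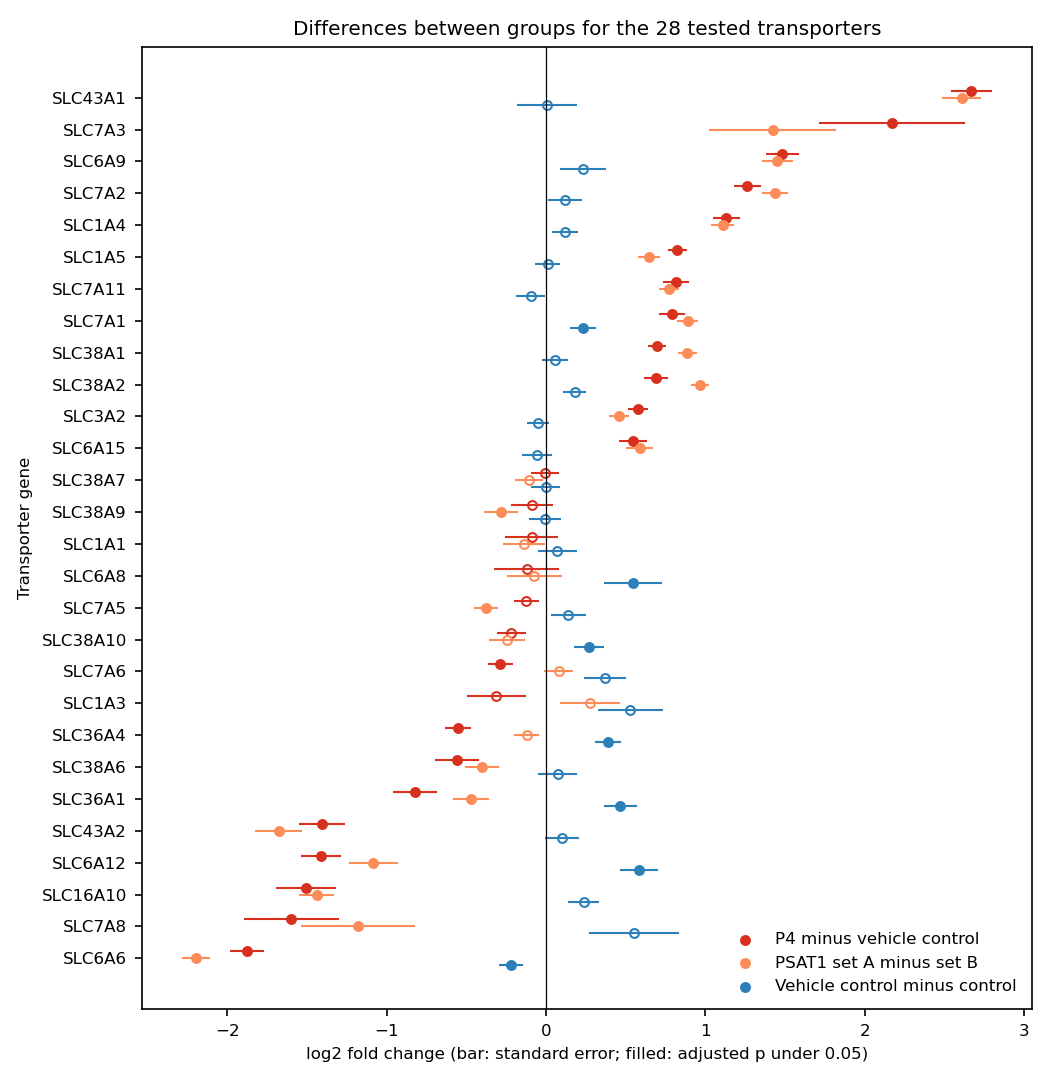
Log2 fold change with its standard error for the 28 transporters tested with P4 against vehicle control (red), set A against set B (orange) and vehicle control against control (blue, 27 of them), where filled points were called. Red and orange points span -2.20 to 2.67, while the blue points stay between -0.22 and 0.58.

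Promoter sequences were looked at because several members are known ATF4 targets. RefSeq windows of 300 bases, from 250 before to 50 after a transcript start (GRCh38.p14), were at hand for 25 of the 34 genes. SLC1A2, SLC3A1, SLC6A6, SLC6A12, SLC6A15, SLC7A2, SLC7A3, SLC7A11 and SLC43A3 had none. Of 4 motifs searched on both strands, TGATGNAA, the core of the amino acid response element bound by ATF4 with C/EBP partners, was found in 5 of the 8 windowed genes that rose with P4, in 0 of 7 that fell, in 1 of 7 that were not called (SLC1A3) and in 0 of 3 that were not tested. Over all genes with windows 4.46% held it, and 3.62% of all 35116 windows did. The 25 members had 46 windows, while all 27305 genes with windows had 35116. Members thus had more windows per gene in which to hold a match. The matches are shown with up to 11 bases on either side, 5′ to 3′ on the strand of the gene, with the motif in capitals (in SLC1A4 and SLC3A2 it reads on the other strand).
SLC1A5: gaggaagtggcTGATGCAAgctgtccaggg
SLC1A4: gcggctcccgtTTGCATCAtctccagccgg
SLC38A1: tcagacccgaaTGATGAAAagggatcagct
SLC7A1: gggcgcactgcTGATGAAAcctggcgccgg
SLC3A2: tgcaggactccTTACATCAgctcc
SLC1A3: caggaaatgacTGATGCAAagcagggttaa

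These lie at chr19:46784893-46784922 (SLC1A5, − strand), chr2:64989381-64989410 (SLC1A4, + strand), chr12:46266502-46266531 (SLC38A1, − strand), chr13:29595663-29595692 (SLC7A1, − strand), chr11:62881725-62881748 (SLC3A2, + strand) and chr5:36596357-36596386 (SLC1A3, + strand). Counted from the transcript start of its window, the motif begins at base -97 in SLC1A5, -7 in SLC1A4, -4 in SLC38A1, 8 in SLC7A1, 38 in SLC3A2 and -220 in SLC1A3. Such a start can differ from the annotated gene start, which is chr11:62856102 for SLC3A2, chr5:36606355 for SLC1A3 and chr2:64988477 for SLC1A4. For SLC38A1 and SLC1A5, on the − strand, the annotated start is chr12:46270017 and chr19:46788594. Only the SLC7A1 stretch spans the annotated start of its gene, chr13:29595688. Which starts these cultures used was not tested. In SLC1A5, SLC1A4 and SLC1A3 the letters of the motif are the same, yet SLC1A5 and SLC1A4 rose and SLC1A3 was not called. TGACGTCA, the cyclic AMP response element, was in no member's window and in 1.85% of all windows. The palindromic progesterone receptor element was in no member's window and in 0.390% of all windows. TGTTCT, the core of an arm of that element with which it can overlap, was in windows of SLC38A1, SLC36A4 and SLC7A7 and in 14.8% of all windows. A match is a description of the letters and not of a bound site.

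Other genes of amino acid handling were counted from 3 lists. These lists were chosen with earlier results of these data known, so their counts are a description and not a test. Of 20 genes of the amino acid response, both regulators and other genes such as ASNS, all were tested with P4 against vehicle. Of these, 17 were higher and 1 was lower, where 26.6% of all genes tested were called higher and 26.5% lower. TRIB3, a target and inhibitor of ATF4, rose from 17.98 ± 0.697 to 368 ± 47.4 CPM (log2 fold change 4.34, SE 0.10, adjusted p = 1.14e-10). CEBPG, a partner of ATF4 on the response element, rose from 56.1 ± 1.44 to 249 ± 21.8 CPM (2.13, SE 0.08, adjusted p = 1.66e-09). The kinase EIF2AK2 was the gene that fell (-0.52, SE 0.07, adjusted p = 7.08e-05). Between the PSAT1 sets 17 of the 20 were higher and 2 lower in set A, where 30.7% of all genes tested were called higher and 31.6% lower. The median log2 fold change of this list was 1.63 with P4, against -0.01 over all genes tested.

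A list of 34 genes covered amino acid sensing for mTORC1, both sensors and other genes of the pathway such as RPTOR, RHEB and TFEB. Of these, 33 were tested, 14 were higher and 7 lower with P4, against the same 26.6% and 26.5% of all genes, and 53.0% called in all. RRAGD, a Rag GTPase that tethers mTORC1 to the lysosome, rose (log2 fold change 1.30, adjusted p = 4.89e-08), as did FNIP1, a folliculin partner (1.28, adjusted p = 3.24e-07). SESN3 (-0.39, adjusted p = 0.00019) and DEPDC5 (-0.68, adjusted p = 0.000594), both brakes on mTORC1, fell. In vehicle controls, both exceeded their level in untreated cultures (log2 difference 0.27, adjusted p = 0.0128 for SESN3 and 0.33, adjusted p = 0.044 for DEPDC5). Between the sets DEPDC5 was lower in set A (-0.57, adjusted p = 0.000138) and SESN3 was not called (-0.05, adjusted p = 0.514), and the difference between the 2 responses was called for SESN3 (0.36, adjusted p = 0.036). NPRL2, another brake, named after its values were seen, rose with P4 (0.39, adjusted p = 0.0118). SESN2 and DDIT4, brakes counted in the amino acid response list above, were called higher with P4 and in set A. CASTOR2, also a brake, was called lower in both comparisons. The brakes on mTORC1 thus had no common direction. Of 33 other amino acid carriers, some of them of the SLC6 and SLC38 families, 17 were tested, with 1 higher and 12 lower, against 26.6% and 26.5% of all genes. The one that rose was SLC25A38, the mitochondrial glycine carrier (0.76, adjusted p = 0.000177). SLC6A20, a proline carrier, had a log2 fold change of -1.93 (adjusted p = 1.05e-05) and SLC25A22, a mitochondrial glutamate carrier, of -0.86 (adjusted p = 0.000111). Between the sets the counts were 15 higher and 8 lower in set A for the mTORC1 list, and 1 higher and 8 lower for the other carriers, against 30.7% and 31.6% of all genes.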

How the data were processed

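Stranded total RNA libraries were read from a single end. After trimming with Cutadapt and a quality filter, the authors mapped reads with Subread, kept those with a unique position, and deposited raw featureCounts counts for each gene of GENCODE release 31, with no normalization. Tool versions and the strand setting of the counting are not given in the sources used here. Of the 34 genes, 25 overlap another annotated gene, 11 of them on the same strand, and their counts are uncertain to that extent. No column was left out of use (0).

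From the counts, edgeR 4.0.16 (R 4.3.3) was used with TMM scaling, a filterByExpr minimum of 10 counts and a robust quasi-likelihood fit to the groups compared alone, with Benjamini-Hochberg adjustment over all genes tested. SE is the log2 fold change divided by the square root of F. The 95% intervals follow from it by the normal distribution, so they are somewhat narrow for so few cultures. The alternatives were DESeq2 1.42.0, other scalings and filters, a fit to all groups at once, a block on replicate number, other reference groups, and each culture left out in turn. The method was tested on simulated data. Names, positions and exon lengths came from GENCODE 29 (GRCh38), and 58587 of 60662 genes were named from it. Members were given in full where called at an absolute log2 fold change of at least 0.8 in P4 against vehicle or set A against set B, and list genes by the 2 smallest adjusted p in each direction; other genes were named after their values were seen. The members and lists were chosen with earlier results of these data known. The labels number the cultures of a group as biological replicates without saying how they were separated, so p-values measure the spread between these cultures.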

Additional observations from a re-analysis of the deposited data

How the results depend on the processing

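With P4 against vehicle control, 19 to 23 members were called over the alternatives that kept every culture of a group (DESeq2, other scalings, filters or references, a fit to all groups), and 20 to 24 when each culture was left out in turn. Between set A and set B the leave-one-out counts were 20 to 21, for set A against control 18 to 19, for set B against P4 17 to 20, for set B against control 0 to 0 and for set A against P4 0 to 0. For vehicle control against control, DESeq2 called 4 members where edgeR called 7, and leaving out 1 culture gave 3 to 9. For the difference between the responses, DESeq2 called 1 member, and leaving out 1 culture gave 0 to 2. SLC7A6 reversed with P4 when the reference was the control (0.069) or the Nap-only group (0.22), and the cause was not tested. Upper-quartile scaling moved the median of all genes to -0.10 with P4 and -0.12 between the sets, and SLC7A5 and SLC38A10 were then called lower with P4 (adjusted p = 0.0438 and 0.017). No called member changed sign in either comparison under another scaling or DESeq2. The correlation of the deviations of same-numbered cultures was -0.0435 to 0.0485 for P4 and vehicle control, -0.0449 to 0.359 for set A and P4, and -0.0908 to 0.201 for set B and control. In no comparison was every pair over 0.1, so the numbers were not taken to pair the cultures. With the replicate number as a block, 21 members were called with P4, 9 for vehicle control against control, 21 between the sets, 19 for set A and 0 for set B against control, 0 for set A and 19 for set B against P4, and 0 for the difference between the responses. Over all genes, vehicle control against control gave 3763 calls, but 2038 without vehicle control replicate 2 and 1908 without replicate 3. Set B against control gave 0, but 14 with no filter, 29 with the block and 5 without set B replicate 1. Set A against P4 gave 0, but 1 with no filter, with the block or without set A replicate 3. The difference between the responses gave 245, but 454 with no filter and 86 to 717 with a culture left out. The 6 members not tested with P4 had at most 11 counts in any P4 or vehicle control library.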
